A study of Homo sapiens with 12 samples.

Results

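ERBB3, GFRA1, EDNRB and EDNRA are cell-surface receptors and co-receptors through which growth factors and peptides act on neural crest cells. Their probes were taken as every probe of the deposited bead-array table whose symbol in the array annotation was 1 of these 4, whatever its values. That gave 11 of the 47322 probes on the array, 30113 of which carry 1 gene. ERBB3 had 3 probes, GFRA1 had 4 and EDNRB had 4. No probe carried the symbol EDNRA in the annotation used, and EDNRA was not analysed here.

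ERBB3 is a receptor of the epidermal growth factor receptor family with little kinase activity of its own; it binds neuregulins and signals as a partner of ERBB2. GFRA1 is a lipid-anchored co-receptor that presents GDNF to the receptor tyrosine kinase RET. EDNRB and EDNRA are G protein-coupled receptors for endothelins. In the crest, ERBB3 is best known from Schwann cell precursors, GFRA1 from enteric nervous system progenitors, EDNRB from melanoblasts and enteric progenitors, and EDNRA from the jaw and the outflow tract of the heart. SOX10, a transcription factor of the early crest and of its glial and melanocyte lineages, is known from mice to be needed for the expression of Erbb3.

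The 12 arrays fell into 4 groups of 3 samples, labelled as biological replicates, all derived from the human embryonic stem cell line H9. LSB samples were unsorted cells at day 11 of differentiation, labelled neuroepithelial. MS5-NC samples were taken at day 35 from cultures induced on MS5 feeder cells, a mouse stromal line, and NPC-NC samples at day 18 from feeder-free cultures; both were sorted for HNK1+/p75+ and labelled neural crest. HNK1 is a carbohydrate epitope and p75 is the product of NGFR. The sox10-NC samples were Wnt-induced and taken at day 11 from an H9 line that carries a sox10::GFP reporter, sorted for GFP, and labelled neural crest. These sorted cells were therefore chosen for SOX10 reporter activity. LSB and sox10-NC share the day and differ in induction, sort and line, and MS5-NC and NPC-NC share the line and the sort and differ in day and induction. In every pair of groups several of these change together, so their contributions cannot be told apart.

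Between 14616 and 17101 probes were detected per array, at a detection p-value under 0.01, and each probe was read from a median of 18 to 22 beads. Of 7 markers of neural crest (SOX10, TFAP2A, TFAP2B, FOXD3, PAX3, SNAI2 and NGFR), all 7 were detected on all 3 arrays of sox10-NC, where their summed level ran from 3639 to 5083 on the linear scale. None of the 7 was detected on all arrays of MS5-NC or NPC-NC, and the summed levels of 84.3 to 107 and 58.3 to 187 lay near the 99.96 to 156 of LSB. SOX10, TFAP2B and FOXD3 were detected on no array of MS5-NC, NPC-NC or LSB, and NGFR on none of MS5-NC and on 2 of NPC-NC. Markers of CNS neuroepithelium, among them PAX6, LHX2 and OTX2, summed to 119 to 163 on sox10-NC arrays, against 3260 to 3606 on those of LSB, 4035 to 5945 on those of NPC-NC and 4813 to 6433 on those of MS5-NC. The members of this list did not move together. LHX2, the brightest of them outside sox10-NC, had means of 10.39 in LSB, 11.71 in NPC-NC and 11.75 in MS5-NC. SIX6 had means of 7.85 in LSB but 5.06 in NPC-NC and 4.87 in MS5-NC. For RAX they were 7.68, 4.90 and 5.24, and SOX1 was detected on no array. On the 7 crest markers MS5-NC and NPC-NC thus went against their label, and they are called by their group names below. Arrays of MS5-NC and NPC-NC correlated with each other at 0.946 to 0.969 over all tested probes. Within MS5-NC the range was 0.961 to 0.967 and within NPC-NC 0.955 to 0.974, so the lowest value between the groups lay below both.

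Levels below are background-corrected, quantile-normalised log2 signals, given per array in the order of the replicate numbers. Tests were run on probes with detection on 3 or more arrays, which left 9 of the 11 receptor probes and 14790 probes in all. A probe was called where limma's Benjamini-Hochberg adjusted p, over all 14790 probes, was under 0.05, the change was at least 2-fold, and at least 2 arrays of the higher group detected it. Where a group was not detected on any array, the fold is a lower bound against the dimmest level that passes detection there, and both means are given on the log2 scale. A level of 1 probe cannot be set against that of another, since probes differ in how well they bind. In bulk RNA, fewer cells that express a gene and less RNA per cell cannot be told apart.

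ERBB3 was high in sox10-NC and near the detection limit in the other 3 groups. Its full-length transcript is read by probe ILMN_1751346. This probe stood at 10.56, 10.27 and 10.50 on the arrays of sox10-NC. The LSB arrays gave 5.98, 5.11 and 5.96, those of NPC-NC 6.12, 5.20 and 5.29, and those of MS5-NC 5.73, 4.66 and 4.68. The sox10-NC arrays lay above all 9 others with no overlap, while the ranges of the other 3 groups overlapped one another. The probe was detected on all 3 arrays of NPC-NC, on 2 of LSB and on 1 of MS5-NC. The mean was 10.44 ± 0.15 (SD, n = 3) in sox10-NC against 5.69 ± 0.50 in LSB, a rise of 4.76 ± 0.32 (SE) in log2, or 27.1-fold (limma, adjusted p = 2.56e-09). ERBB3 was 29.9-fold lower in NPC-NC than in sox10-NC (adjusted p = 1.31e-09) and 42.8-fold lower in MS5-NC (adjusted p = 3.23e-10). The MS5-NC mean of 5.02 includes 2 arrays on which the probe was not detected and lies under the dimmest detected level of 5.12 to 5.21 there, so the size of that fold is uncertain. Bead-to-bead error was small beside these differences: the standard error of the 13 to 29 beads per array was 4.59% to 12.4% of the signal.

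Against LSB, ERBB3 was not called in either HNK1+/p75+ sorted group. The log2 difference from LSB was -0.15 in NPC-NC (95% interval -0.82 to 0.53, limma adjusted p = 0.770) and -0.66 in MS5-NC (-1.34 to 0.01, adjusted p = 0.115). NPC-NC and MS5-NC differed by 0.52 (-0.16 to 1.19, adjusted p = 0.635). One array decided the second of these values, since without array 1 of MS5-NC the log2 difference from LSB was -1.01 and was called (adjusted p = 0.0226). Arrays 2 and 3 of MS5-NC did not detect the probe, so that difference reaches into background and its size is uncertain.

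The other ERBB3 probes, ILMN_1737993 and ILMN_2397602, are annotated to a short transcript that encodes a secreted form of the extracellular part. Both were detected on the 3 arrays of sox10-NC and on no other array, so they passed the filter through sox10-NC alone and had to differ. ILMN_1737993 stood at 6.61, 7.31 and 7.36 in sox10-NC and between 4.28 and 5.12 elsewhere. It was at least 3.68-fold higher than in LSB (means 7.09 and 4.74), 3.94-fold than in NPC-NC (4.39) and 3.79-fold than in MS5-NC (4.57). ILMN_2397602 was dimmer, at 5.98, 6.11 and 5.54 in sox10-NC and 4.28 to 4.63 elsewhere, and at least 1.58-fold above LSB, 1.70-fold above NPC-NC and 1.63-fold above MS5-NC. Their direction was fixed by this detection and is no second measurement of the rise.

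GFRA1 rose in all 3 groups labelled neural crest relative to LSB on its brightest probe, and was highest in sox10-NC. That probe, ILMN_1898518, is annotated to a GFRA1 cDNA clone rather than to a RefSeq transcript. It stood at 9.10, 9.96 and 9.75 on the arrays of sox10-NC. The MS5-NC arrays gave 7.47, 7.13 and 6.79, those of NPC-NC 7.64, 6.15 and 6.12, and those of LSB 4.96, 6.02 and 5.22. The sox10-NC arrays lay above all others, the arrays of MS5-NC and NPC-NC overlapped, and all 6 of those lay above the 3 of LSB, the closest pair by 6.12 to 6.02. In sox10-NC the mean of 9.60 ± 0.45 (SD, n = 3) was 18.5-fold above the 5.40 ± 0.55 of LSB (log2 4.21 ± 0.37 SE, limma adjusted p = 7.54e-08). MS5-NC, at 7.13 ± 0.34, was 3.32-fold above LSB (log2 1.73 ± 0.37, adjusted p = 0.00143), and NPC-NC, at 6.64 ± 0.87, was 2.36-fold above it (log2 1.24 ± 0.37, adjusted p = 0.0190).

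The NPC-NC rise of GFRA1 rested on single arrays. Without array 1 of NPC-NC the log2 change was 0.73 (limma adjusted p = 0.117), without array 1 of LSB 1.02 (0.0915) and without array 3 of LSB 1.13 (0.0644), and none of the 3 was called. The MS5-NC rise was called with any 1 of the 12 arrays left out, at log2 1.51 to 2.02. Against sox10-NC, GFRA1 was 7.83-fold lower in NPC-NC (adjusted p = 7.00e-06) and 5.56-fold lower in MS5-NC (adjusted p = 5.08e-05). NPC-NC and MS5-NC differed by -0.49 (95% interval -1.27 to 0.28, adjusted p = 0.710).

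The other 3 GFRA1 probes, annotated to its RefSeq transcript, did not show the intermediate levels of MS5-NC and NPC-NC. ILMN_2334359 stood at 7.50, 7.77 and 7.54 in sox10-NC and at 4.53 to 4.99 in the other 9 arrays, where it was not detected. ILMN_1725678 stood at 6.46, 6.84 and 6.63 in sox10-NC and at 4.44 to 4.80 in the others, again not detected. Both passed the filter through sox10-NC alone. The first was at least 5.24-fold above LSB (means 7.60 and 4.81), 5.60-fold above NPC-NC (4.75) and 5.39-fold above MS5-NC (4.65), and the second at least 2.69-, 2.88- and 2.77-fold (6.64 against 4.64, 4.49 and 4.67). ILMN_2253805 was detected on no array, at 4.30 to 5.09, and was not tested. On the mean of its tested probes, GFRA1 differed from LSB by 0.34 in NPC-NC and 0.53 in MS5-NC in log2, neither called. Of the 3 probes averaged, 2 were not detected in LSB, NPC-NC or MS5-NC and could not show a difference among levels under their detection limit. The rise in NPC-NC and MS5-NC therefore rests on ILMN_1898518 alone, and why the probes differ was not tested.

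Promoter windows of GFRA1 are shown because the gene was called higher in sox10-NC than in LSB, as were SOX10, TFAP2A and TFAP2B, described below. In MS5-NC and NPC-NC, where GFRA1 also rose, SOX10 and TFAP2B were not detected. TFAP2A was detected by its brightest probe on 2 arrays each of MS5-NC, NPC-NC and LSB. Capitals mark a match to GCCNNNGGC, a form of the TFAP2 motif, or to ACAAAG, a core of the SOX motif, whose reverse complement reads CTTTGT. RefSeq (GRCh38.p14) gives GFRA1 4 windows of 250 bases before to 50 after a start; 2 hold GCCNNNGGC and 1 holds ACAAAG. The window at chr10:116272426-116272725, on the minus strand, reads 5′ to 3′ with 1 match to GCCNNNGGC near its 5′ end, and the window at chr10:116274656-116274955, on the minus strand, has 1 match to ACAAAG on the opposite strand.
GFRA1 promoter, TFAP2 motif match: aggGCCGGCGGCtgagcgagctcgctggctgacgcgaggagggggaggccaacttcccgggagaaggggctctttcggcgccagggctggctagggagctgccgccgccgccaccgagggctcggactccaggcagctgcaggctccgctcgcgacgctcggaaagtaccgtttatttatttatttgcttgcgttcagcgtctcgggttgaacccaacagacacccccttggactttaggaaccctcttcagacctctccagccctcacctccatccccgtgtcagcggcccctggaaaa
GFRA1 promoter, SOX motif match: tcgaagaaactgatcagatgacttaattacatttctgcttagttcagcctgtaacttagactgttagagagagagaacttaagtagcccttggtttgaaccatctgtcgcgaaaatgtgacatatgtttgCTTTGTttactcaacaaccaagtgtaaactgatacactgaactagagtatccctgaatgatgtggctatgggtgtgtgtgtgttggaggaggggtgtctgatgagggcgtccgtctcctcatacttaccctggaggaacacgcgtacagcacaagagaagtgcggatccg
Over all 35116 such windows, searched on both strands, 23.2% hold GCCNNNGGC and 16.1% hold ACAAAG. A match is a run of letters and says nothing of binding.

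EDNRB was detected on all 12 arrays by its brightest probe, ILMN_1751904, and formed 3 steps: LSB lowest, MS5-NC and NPC-NC between, sox10-NC highest. The LSB arrays gave 7.11, 7.14 and 7.08, those of NPC-NC 8.94, 8.34 and 8.60, those of MS5-NC 9.32, 8.40 and 8.59, and those of sox10-NC 10.78, 10.43 and 10.13. LSB arrays lay closest together, no array of 1 step overlapped another step, and MS5-NC and NPC-NC overlapped each other. EDNRB was 10.1-fold higher in sox10-NC than in LSB (10.45 ± 0.32 against 7.11 ± 0.03, SD, n = 3; log2 3.34 ± 0.27 SE; limma adjusted p = 1.95e-08). It was 2.86-fold higher than in LSB in NPC-NC (8.63 ± 0.30; log2 1.52 ± 0.27; adjusted p = 3.85e-04) and 3.17-fold higher in MS5-NC (8.77 ± 0.49; log2 1.66 ± 0.27; adjusted p = 1.09e-04). EDNRB was 3.53-fold lower in NPC-NC than in sox10-NC (adjusted p = 4.53e-05) and 3.19-fold lower in MS5-NC (adjusted p = 9.39e-05). NPC-NC and MS5-NC differed by -0.15 (95% interval -0.70 to 0.41, adjusted p = 0.912). All 5 called differences held with any 1 of the 12 arrays left out.

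The remaining EDNRB probes were dim. ILMN_1675100, annotated to the same RefSeq transcript, gave 5.55, 5.44 and 5.90 on the sox10-NC arrays, 5.37, 6.02 and 4.75 on those of MS5-NC, 5.34, 4.85 and 4.92 on those of NPC-NC and 4.56, 4.57 and 4.97 on those of LSB. It was detected on no array of LSB and on 1 of NPC-NC, so those groups have no order on this probe; sox10-NC and MS5-NC overlapped, and no comparison was called. The log2 difference between sox10-NC and LSB was 0.93 ± 0.28 (limma adjusted p = 0.0179), under the 2-fold threshold. It was called with the authors' processed values and with median scaling (1.10 in both), and without array 3 of LSB or array 2 of sox10-NC (1.04 in both). MS5-NC against LSB was called without array 3 of MS5-NC (adjusted p = 0.0131). ILMN_1710297, annotated to another EDNRB transcript, stood at 6.65, 4.75 and 6.31 in sox10-NC, so that array 2, where it was not detected, lay within the 4.40 to 5.31 of the other groups. It was called higher in sox10-NC than in LSB, by at least 1.62-fold (means 5.91 and 4.62, adjusted p = 0.0120), and than in MS5-NC, by 2.04-fold (adjusted p = 0.0448), but not than in NPC-NC (adjusted p = 0.0565). The MS5-NC mean of 4.88 includes 2 arrays without detection and lies under the dimmest detected level there, so that fold is uncertain. The first of these calls was lost without array 2 of LSB (log2 1.17), array 1 of sox10-NC (0.93) or array 3 of sox10-NC (1.09), the second without array 1, 2 or 3 of LSB, 1 or 3 of MS5-NC, 3 of NPC-NC, or 1 or 3 of sox10-NC (-1.03 to -0.66), and the third difference was called without array 1 of NPC-NC or array 2 of sox10-NC (-1.23 and -1.61). ILMN_2264916 was detected on no array, at 4.26 to 4.72.

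Of the 2 EDNRB promoter windows that RefSeq gives, the one at chr13:77918782-77919081 on the minus strand holds 1 match to GCCNNNGGC, in capitals, and neither holds ACAAAG. It is shown because EDNRB too was called higher in sox10-NC than in LSB. EDNRB also rose in MS5-NC and NPC-NC, where SOX10 and TFAP2B were not detected and TFAP2A was detected on 2 arrays of each.
EDNRB promoter: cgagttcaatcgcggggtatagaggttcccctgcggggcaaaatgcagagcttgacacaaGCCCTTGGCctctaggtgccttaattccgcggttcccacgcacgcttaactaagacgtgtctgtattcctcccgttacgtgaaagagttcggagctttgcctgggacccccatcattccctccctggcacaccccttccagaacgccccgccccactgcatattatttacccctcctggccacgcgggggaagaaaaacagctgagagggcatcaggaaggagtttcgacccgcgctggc

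**Figure D1:**
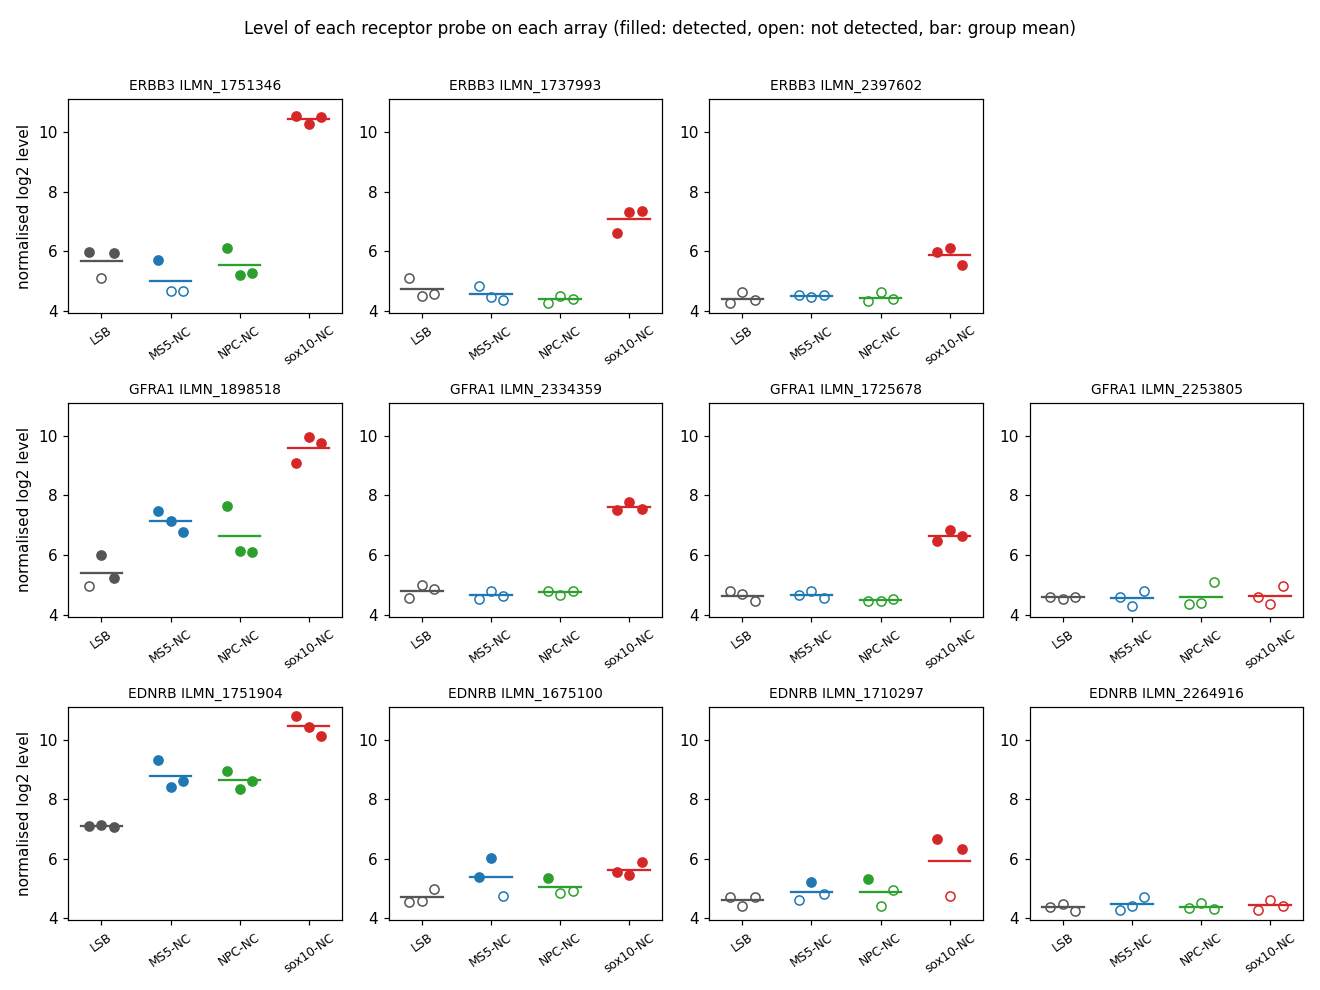
Normalised log2 level (vertical axis) of each of the 11 receptor probes on each of the 12 arrays, by group; filled points are detected, open points not, and bars are group means of 3 arrays. The sox10-NC arrays are highest for ERBB3 ILMN_1751346 (10.27 to 10.56), GFRA1 ILMN_1898518 (9.10 to 9.96) and EDNRB ILMN_1751904 (10.13 to 10.78), and MS5-NC and NPC-NC are intermediate for the GFRA1 and EDNRB probes.

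The order of the group means was led by sox10-NC for all 9 tested probes. ERBB3 ILMN_1737993 and ILMN_2397602 and GFRA1 ILMN_2334359 and ILMN_1725678 passed the filter through sox10-NC alone, so that it had to lead there. EDNRB ILMN_1710297 also needed sox10-NC to pass. On EDNRB ILMN_1675100 the lead over MS5-NC was 0.25 in log2 (limma adjusted p = 0.558), with overlapping arrays. For EDNRB ILMN_1751904 and GFRA1 ILMN_1898518 the order continued with MS5-NC, NPC-NC and LSB, where only the step between MS5-NC and NPC-NC was within the spread. For ERBB3 ILMN_1751346 none of the steps below sox10-NC was beyond the spread.

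Counted over probes, 8 of the 9 tested receptor probes were called higher in sox10-NC than in LSB and 0 lower, where 8.95% of all tested probes were called higher and 8.84% lower. Of these 8, 4 had passed the filter through sox10-NC alone, and EDNRB ILMN_1710297 also needed sox10-NC to pass. The count is therefore a description and gives no support of its own. In NPC-NC against LSB, 2 of 9 were called higher and 0 lower (9.01% and 5.25% of all probes), and in MS5-NC against LSB likewise 2 and 0 (11.5% and 8.3%); in both it was GFRA1 ILMN_1898518 and EDNRB ILMN_1751904. Against sox10-NC, 7 of 9 were called lower in NPC-NC (4.7% of all probes) and 8 of 9 in MS5-NC (6.48%). In neither was any called higher, against 8.69% and 9.91% of all probes. The same 4 probes had to differ here too, so these counts are also a description. Between NPC-NC and MS5-NC 0 of 9 were called by limma, 0 at an unadjusted p under 0.05, and 0.0744% of all probes were. Those 4 probes were detected on no array of LSB, MS5-NC or NPC-NC, and EDNRB ILMN_1710297 on 1 each of MS5-NC and NPC-NC. As a call needs detection on 2 arrays of the higher group, none of these probes could be called between those groups. The 3 comparisons with LSB share its arrays, and the comparisons with sox10-NC share those of sox10-NC.

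**Figure D2:**
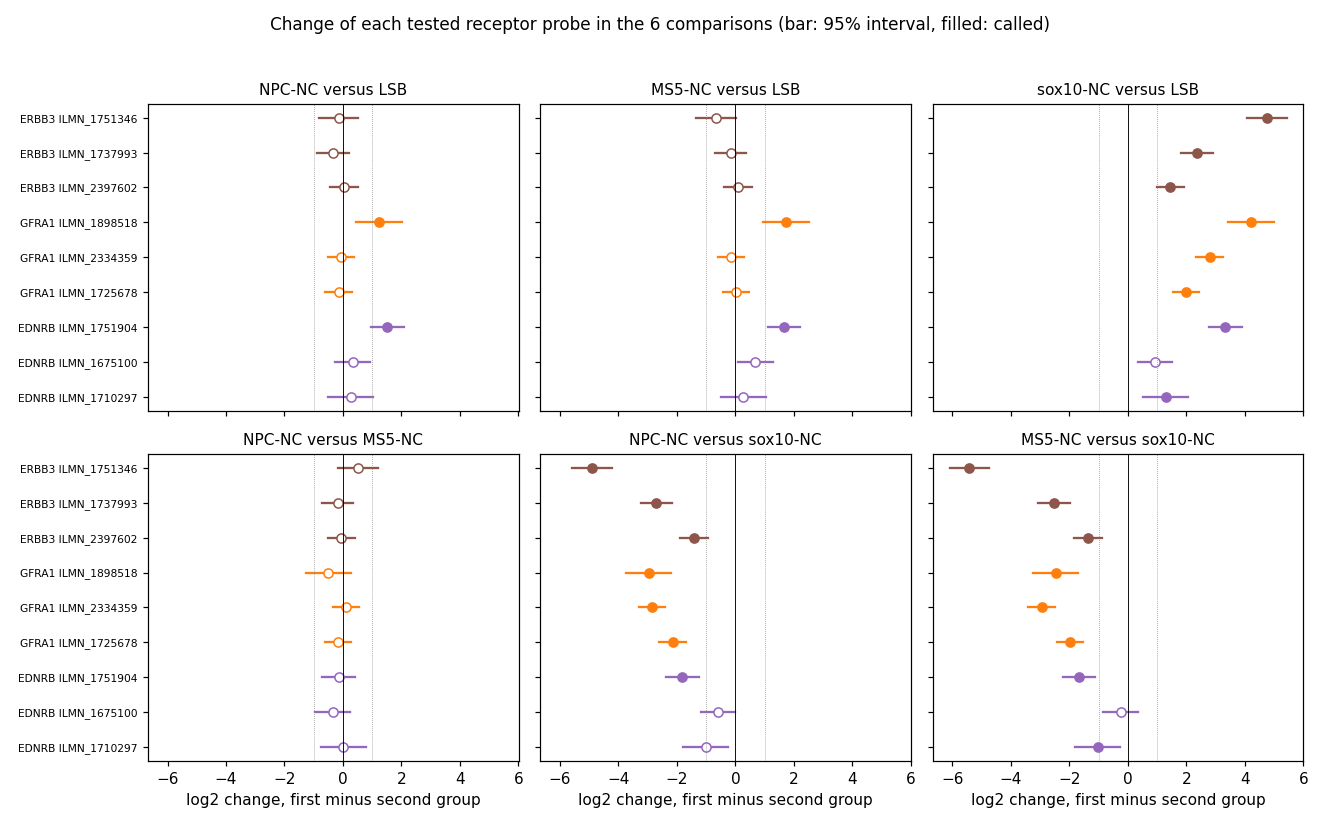
Log2 change of each of the 9 tested receptor probes (horizontal axis, first group minus second) in the 6 comparisons, with 95% intervals; filled points are called, and dotted lines mark a 2-fold change. ERBB3 ILMN_1751346 lies at 4.76 in sox10-NC against LSB but at -0.15 and -0.66 in NPC-NC and MS5-NC against LSB, where EDNRB ILMN_1751904 lies at 1.52 and 1.66.

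Within MS5-NC and within NPC-NC, array 1 was the highest of its group for the brightest probe of each receptor. In NPC-NC, array 1 also had the highest summed level of the 7 crest markers, 187 against 58.3 and 86.2, and the highest PAX6, at 9.38 against 8.09 and 8.17. The summed CNS neuroepithelium markers, a list that holds PAX6, were instead lowest on that array, at 4035 against 5411 and 5945. In MS5-NC the summed crest level of array 1 was 107 against 91.2 and 84.3, and CDH1, an epithelial cadherin, stood at 6.21 against 4.34 and 4.68. The part of these differences between arrays in the receptor levels was not tested. With both arrays left out, an alternative chosen after seeing the data, EDNRB ILMN_1751904 was still called above LSB in NPC-NC (log2 1.37) and MS5-NC (1.40), while GFRA1 ILMN_1898518 in NPC-NC was not (0.73, limma adjusted p = 0.114).

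The HNK1+/p75+ sorted groups also differed from LSB in markers of other cells. Neuronal markers (DCX, STMN2, TUBB3, ELAVL3, ELAVL4 and ISL1) summed to 2058 to 2385 on LSB arrays and 2899 to 7938 on those of sox10-NC, against 11093 to 13060 on those of NPC-NC and 13498 to 16730 on those of MS5-NC. Within this list ISL1 went the other way, with a mean of 9.83 in sox10-NC against 7.39 in NPC-NC and 8.19 in MS5-NC. All 6 radial glial markers were detected on every array of LSB, NPC-NC and MS5-NC, and 5 on every array of sox10-NC. They summed to 6826 to 8925 on sox10-NC arrays and 13488 to 17286 on those of LSB. The sums were 21204 to 23672 on NPC-NC arrays and 20595 to 24292 on those of MS5-NC. FABP7 and HES5 had means of 7.36 and 5.76 in sox10-NC and 12.60 and 11.89 in LSB. VIM and NES had 12.64 and 9.73 in sox10-NC against 11.87 and 9.33 in LSB. SLC1A3 had 7.09 in both, and PTPRZ1 9.26 against 9.50. EDNRB is also known from radial glia and astrocytes, and the part of these cells in its level was not tested. EDNRB is known from endothelium as well, whose defining markers PECAM1, CDH5 and KDR were detected on none of the 12 arrays. TEK, the remaining gene of that list of 4, was detected on all 12, with a mean of 7.92 in LSB and of 6.18 for sox10-NC, 6.90 for NPC-NC and 6.12 for MS5-NC. Simple epithelial markers summed to 2678 to 3040 on LSB arrays, against 202 to 687 on those of sox10-NC, 531 to 702 on those of NPC-NC and 344 to 576 on those of MS5-NC. The sums of mesenchymal and smooth muscle markers overlapped more, from 2359 to 4832 over all 12 arrays, but members of that list moved in opposite directions. COL1A1, COL1A2, COL3A1 and PDGFRB had means of 5.34, 8.82, 5.41 and 5.24 in LSB. In MS5-NC they had 8.03, 10.69, 8.67 and 7.10, and in NPC-NC 7.98, 10.42, 8.08 and 6.63. ACTA2 and TAGLN had 10.55 and 10.72 in LSB, 8.24 and 8.21 in MS5-NC and 8.82 and 8.88 in NPC-NC. PDGFRA was detected on no array of LSB and on 1 of each other group. The part of these markers in the receptor differences was not tested. Melanocyte markers summed to 2798 to 4603 in sox10-NC, 1538 to 1757 in LSB, and 243 to 551 over MS5-NC and NPC-NC. PMEL was the brightest of them, with means of 11.54 for sox10-NC, 10.48 for LSB, 8.08 for MS5-NC and 7.71 for NPC-NC. MITF, TYR and MLANA were detected on no array outside sox10-NC. Within sox10-NC, MITF was detected on all 3 arrays, but TYR and MLANA on only 1 array each. Of the Schwann cell and glial precursor markers, 4 of 6 had a probe and summed to 1523 to 2187 in sox10-NC and 15.5 to 34.2 elsewhere. SOX10 and FOXD3 in that list, with means of 10.72 and 6.76 in sox10-NC, are also crest markers. CDH19 was detected on 1 array of sox10-NC and on none of the other groups, and S100B on no array of any group.

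The ligands, partners and processing enzymes of the 3 receptors were taken from lists of 20 genes for neuregulin and ERBB signalling, 17 for GDNF and RET and 8 for endothelin, each gene by its brightest tested probe. Of the 20 neuregulin and ERBB genes, 12 were tested. ERBB2, the partner through which ERBB3 signals, was detected on all 12 arrays, with a mean of 7.76 ± 0.30 in sox10-NC (SD, n = 3) and group means of 8.50 ± 0.41 for LSB, 8.67 ± 0.09 for MS5-NC and 8.97 ± 0.14 for NPC-NC. It thus had its lowest mean where ERBB3 had its highest; ERBB2 was 2.31-fold higher in NPC-NC than in sox10-NC (limma adjusted p = 0.00125), and the 1.67-fold difference between LSB and sox10-NC did not reach 2-fold. ERBB4 was detected on no array and EGFR on 1.

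Among the ligands, the neuregulin gene NRG1, whose product binds ERBB3, gave unlike values on its 2 tested probes. ILMN_1737252 fell from 6.48 ± 0.36 in LSB to 4.90 ± 0.22 in NPC-NC (3.00-fold, limma adjusted p = 3.03e-04) and 5.36 ± 0.53 in MS5-NC (2.17-fold, adjusted p = 0.00352), and was at least 2.12-fold lower in sox10-NC, where it was not detected. The other tested probe, ILMN_1844593, was not called in any comparison, with a mean of 4.85 in sox10-NC, where it too was not detected, and means of 5.39 for LSB, 5.53 for MS5-NC and 5.57 for NPC-NC. HBEGF and EGF, ligands of other members of the family, were not detected in sox10-NC; HBEGF was at least 1.47-fold higher in NPC-NC and 1.48-fold in MS5-NC, and EGF at least 1.18-fold higher in LSB and 1.68-fold in MS5-NC.

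ERRFI1, a feedback inhibitor of ERBB receptors, was 2.20-fold higher in NPC-NC and 2.25-fold higher in MS5-NC than in sox10-NC. ADAM10, a sheddase, was 2.58-fold lower in MS5-NC than in LSB. BACE1, a protease known to cleave neuregulin, was not detected in LSB and rose by at least 1.48-fold in NPC-NC, 1.75-fold in MS5-NC and 1.52-fold in sox10-NC. By comparison, the list's 12 tested genes gave 1 called higher and 0 lower in NPC-NC against LSB (10.2% and 4.84% of all genes), 1 and 1 in MS5-NC (13% and 7.85%), and 1 and 1 in sox10-NC (9.77% and 8.64%). Against sox10-NC, 3 were higher and 0 lower in NPC-NC (9.31% and 4.73% of all genes) and 3 and 0 in MS5-NC (10.8% and 6.58%). The list's median change ran from -0.62 in sox10-NC against LSB to 0.67 in MS5-NC against sox10-NC, where the medians over all genes were -0.020 and -0.0031. Between NPC-NC and MS5-NC none of the tested genes of the 3 lists was called, against 0.0798% of all genes.

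Of the 17 GDNF and RET genes, 8 were tested. RET, the signalling partner of GFRA1, had 3 probes, 1 of which was detected on 2 of the 12 arrays (1 each of MS5-NC and NPC-NC) and the others on none, so it was not tested. The 3 probes had group means between 4.32 and 4.98. No probe carried GDNF as its 1 gene, and the related ligands NRTN and PSPN were detected on 1 array each and ARTN on none.

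The related co-receptors did not share 1 pattern. GFRA3, which binds artemin, was detected on the 3 arrays of sox10-NC alone, so it passed the filter through that group and had to differ. It stood at 8.01 ± 0.11 (SD, n = 3) there, at least 6.96-fold above LSB, 7.44-fold above NPC-NC and 7.16-fold above MS5-NC. GFRA2, which binds neurturin, had means of 6.16 for LSB, 7.33 for NPC-NC, 7.84 for MS5-NC and 8.07 for sox10-NC, rising 2.25-, 3.21- and 3.76-fold over LSB (limma adjusted p = 0.0304, 0.00232 and 8.89e-04). NCAM1, an alternative receptor for GDNF bound to GFRA1, had means of 5.06, 7.25 and 7.94 in the first 3 of these groups, and rose 4.56-, 7.33- and 7.65-fold over LSB. GFRA2 and NCAM1 were not called between sox10-NC and either sorted HNK1+/p75+ group, unlike GFRA1.

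SORL1, a sorting receptor known to bind GDNF with GFRA1, was not detected in sox10-NC and was at least 1.09-fold higher in LSB, 1.68-fold in NPC-NC and 1.43-fold in MS5-NC. DOK4, an adaptor of RET, was 2.56-fold higher in MS5-NC than in LSB, and 2.59-fold and 3.82-fold higher in NPC-NC and MS5-NC than in sox10-NC. DOK6, another RET adaptor, was at least 1.21-fold higher in MS5-NC than in sox10-NC. Of the 8 tested genes, 2, 3 and 3 were called higher than LSB in NPC-NC, MS5-NC and sox10-NC, and 0, 0 and 1 lower. Over all genes 10.2%, 13% and 9.77% were called higher and 4.84%, 7.85% and 8.64% lower. Against sox10-NC, 2 were higher and 1 lower in NPC-NC (9.31% and 4.73% of all genes), and 3 and 1 in MS5-NC (10.8% and 6.58%). The 1 lower gene was GFRA3 in both, and it was also among the 3 higher in sox10-NC than in LSB. Since GFRA3 had to differ there, these counts are a description. The median change was 0.48, 0.61 and 0.33 in the comparisons with LSB, where the medians over all genes were 0.012, 0.0020 and -0.020.

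Of the 8 endothelin genes, only the peptidase genes ECE2 and ECEL1 were tested. EDN3, the ligand best known for EDNRB in the crest, and EDN1 were detected on 1 array each, and EDN2 and ECE1, the main converting enzyme, on none. ECE2, a related converting enzyme, was 2.34-fold lower in NPC-NC and 3.22-fold lower in MS5-NC than in LSB (limma adjusted p = 0.00518 and 2.69e-04), and its second tested probe was also lower in sox10-NC, by 2.22-fold. ECEL1 is a family member not known to process endothelin. Its mean was 10.24 ± 0.38 in sox10-NC, 5.99 ± 0.24 in NPC-NC and 5.07 ± 0.34 in LSB (SD, n = 3). It was 36.0-fold higher in sox10-NC than in LSB (adjusted p = 8.53e-11), 19.0-fold than in NPC-NC and 18.9-fold than in MS5-NC.

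**Figure D3:**
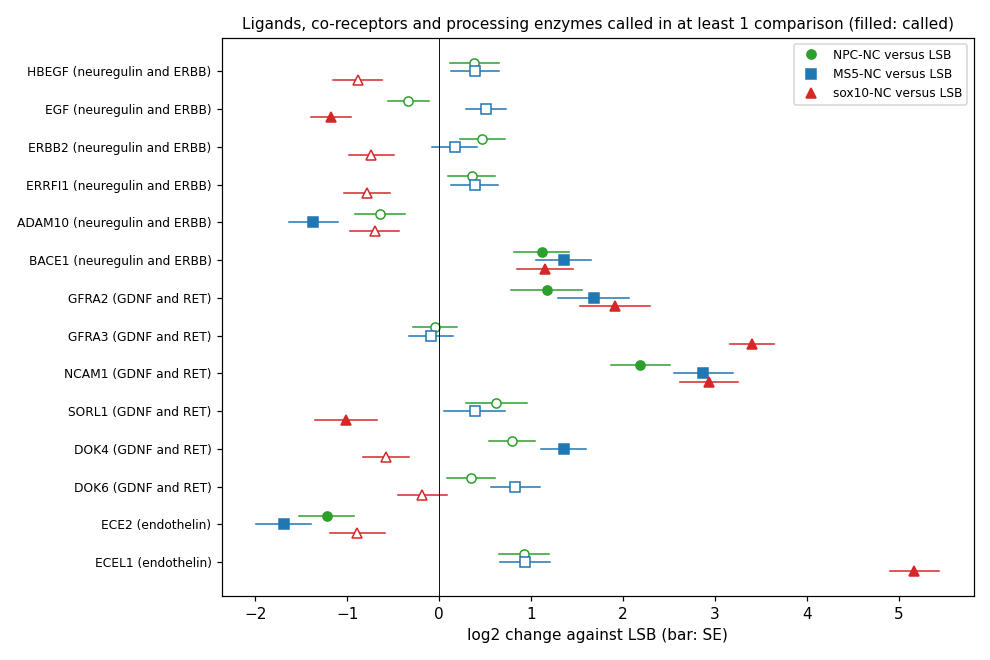
Log2 change against LSB (horizontal axis, bar: SE) of the 14 ligand, co-receptor, adaptor and enzyme genes called in at least 1 of the 6 comparisons; circles are NPC-NC, squares MS5-NC, triangles sox10-NC, filled where called. Fitted values of genes not detected in a group depend on the background there. GFRA3 and ECEL1 are called higher than LSB in sox10-NC alone, and GFRA2 and NCAM1 in all 3. GFRA3 passed the filter through sox10-NC alone and had to differ.

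Across 14 listed regulators of the crest and its lineages, 10 were tested. In sox10-NC against LSB 8 rose and 1 fell (9.77% and 8.64% of all genes). In NPC-NC against LSB 2 rose and 0 fell (10.2% and 4.84%), and in MS5-NC 1 and 0 (13% and 7.85%). Against sox10-NC 8 were lower and 2 higher both in NPC-NC (4.73% and 9.31% of all genes) and in MS5-NC (6.58% and 10.8%). SOX10, TFAP2B, FOXD3 and MITF passed the filter through sox10-NC alone and had to differ. PAX3, detected on 3 arrays of sox10-NC and 1 of MS5-NC, also needed sox10-NC to pass. These counts are therefore a description. SOX10, whose reporter was the sort, stood at 10.72 ± 0.23 (SD, n = 3) in sox10-NC, at least 45.6-fold above LSB, 48.8-fold above NPC-NC and 46.9-fold above MS5-NC. TFAP2A was 16.5-fold and TFAP2B at least 27.8-fold above LSB in sox10-NC. FOXD3, MITF and PAX3 were at least 2.92-, 3.63- and 2.47-fold above it, ZEB2 4.62-fold and SOX8 5.96-fold.

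Regulators did not all run with the receptors in MS5-NC and NPC-NC. SOX9, known from both the crest and radial glia, was 4.36-fold higher in NPC-NC and 4.67-fold higher in MS5-NC than in LSB and was not called in sox10-NC, where it was 4.98-fold and 5.34-fold lower than in those groups. SOX8 rose 2.28-fold in NPC-NC and was not called in MS5-NC. SOX2, known from neural progenitors, fell 7.19-fold in sox10-NC. In NPC-NC and MS5-NC, the brightest probes of EDNRB and GFRA1 and that of SOX9 were called above LSB, and SOX10 was not detected. The part of these regulators in the receptor levels was not tested.

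The genes with levels most like each receptor's over the 12 arrays were ranked by Pearson r between brightest tested probes, as a description without a test; the 12 arrays share 4 group means and 1 normalisation. For ERBB3 they were CCDC3 (0.988), SOX10 (0.988), DACT2 (0.986), ROR1 (0.984) and SNAI2 (0.981). For EDNRB they were TNFRSF19 (0.981), LEF1 (0.970), NPIPB5 (0.964), RHOB (0.962) and FIGNL2 (0.961), and for GFRA1 RHOB (0.975), WNT5A (0.967), TNFRSF19 (0.963), COQ7 (0.960) and PDGFC (0.955). The first 5 are high in sox10-NC alone, as with CCDC3 at 8.77 there and 4.54 to 4.58 in the other group means. TNFRSF19 instead had a mean of 11.06 in sox10-NC, with 8.62 for MS5-NC, 8.56 for NPC-NC and 6.61 for LSB, the same 3 steps as EDNRB. Between the receptors r was 0.937 for GFRA1 and EDNRB, 0.827 for ERBB3 and GFRA1 and 0.779 for ERBB3 and EDNRB.

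Across the ways of processing tried, the direction of all 27 called receptor differences was kept, and 14 were called under each alternative that gave a value. ERBB3 ILMN_1751346 in sox10-NC against LSB ranged from 2.86 to 4.89 in log2, GFRA1 ILMN_1898518 from 2.80 to 4.48 and EDNRB ILMN_1751904 from 1.85 to 3.50, all called. The lowest values for ERBB3 and EDNRB came from the mean of each gene's tested probes, and that for GFRA1 from leaving out background correction.

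**Figure D4:**
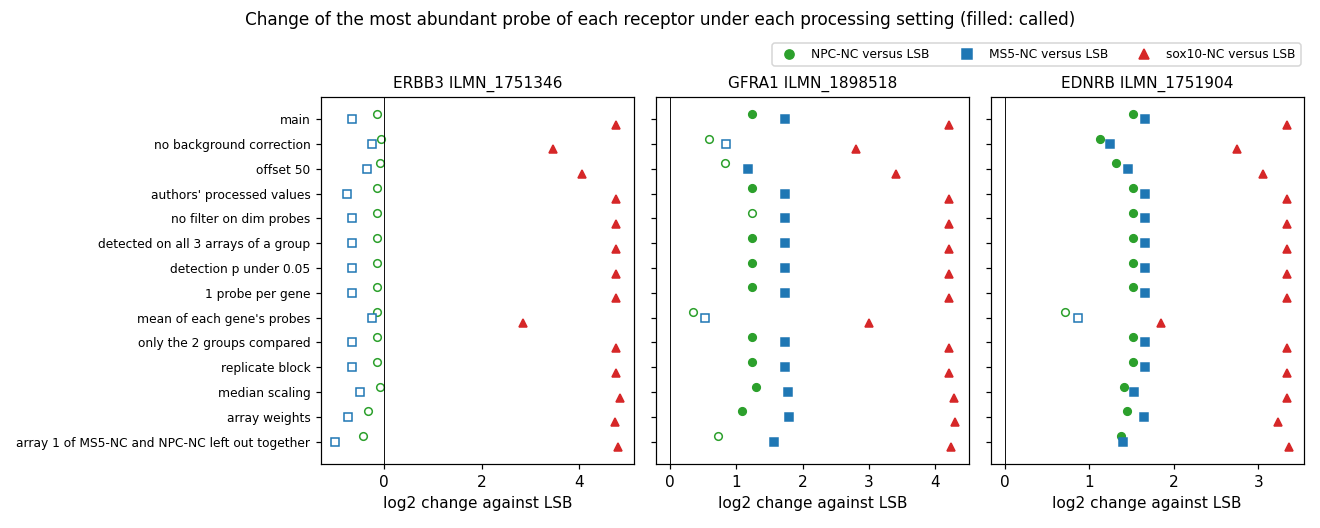
Log2 change against LSB (horizontal axis) of the brightest probe of each receptor under the main processing and 13 alternatives (rows); circles are NPC-NC, squares MS5-NC, triangles sox10-NC, filled where called. The sox10-NC changes are called in every row, while GFRA1 in NPC-NC is not called in 5 rows.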

How the data were processed

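Total RNA of 12 samples, 3 per group, was labelled as biotinylated cRNA for Illumina HT-12 bead arrays, and the submitters' processing notes name GenomeStudio. The deposited table holds a mean bead intensity per probe and array that was not normalised. Beside each intensity stand a bead count, a bead standard error and a detection p-value, per the file headers, all used here. The deposited series matrix holds a second, processed intensity on a linear scale whose steps are not stated in the sources used here; its medians of 7.54 to 7.58 and its ranking equal to that of the signal (Spearman 1) tie its columns to the arrays, and it served as an alternative.

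The neqc function of limma 3.58.1 (R 4.3.3, offset 16) estimated the background from the detection p-values, corrected the intensities for it, equalised the arrays by quantiles and gave log2 levels. All 12 arrays entered 1 model of 4 groups (lmFit and eBayes, two-sided), tested first on simulated data, with Benjamini-Hochberg adjustment over 14790 probes of 11280 genes. Filters, thresholds and lower bounds are as given with the results. Symbols came from the array annotation and equal those of RefSeq GRCh38.p14 by Entrez ID for 30074 of 30113 probes. The named genes are all probes of the receptors, pathway and regulator genes with a call, their other probes where these disagree, and the 5 genes most like each receptor, uncharacterised symbols left out. Precision is limited by 3 arrays per group. No slide or scan date is given in the sources used here. Samples with the same replicate number did not deviate together in every pair, so the numbers were not used to pair samples. The alternatives changed background correction, offset, filter, detection threshold, probe summary, samples in the fit, scaling and array weights, added a replicate block, and left out each array. The receptors, lists and tests were chosen with earlier results of these data known.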

Additional observations from a re-analysis of the deposited data

How the results depend on the processing

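Of the 27 called receptor differences, 0 reversed under the 14 alternatives or with any of the 12 arrays left out, and 14 were called wherever they could be tested; probes detected in sox10-NC alone leave the tested set when an array of sox10-NC is left out. Averaged over each gene's tested probes, EDNRB was no longer called at log2 0.71 in NPC-NC and 0.87 in MS5-NC against LSB and at -0.98 in MS5-NC against sox10-NC. Without background correction GFRA1 ILMN_1898518 was not called against LSB, at 0.59 in NPC-NC and 0.85 in MS5-NC. It was not called in NPC-NC with an offset of 50 (0.82) or no filter on dim probes (1.24, adjusted p = 0.0877) either. ERBB3 ILMN_2397602 was not called without background correction or with an offset of 50, and GFRA1 ILMN_1725678 not without background correction; both settings shrink changes of dim probes by construction. EDNRB ILMN_1710297 in sox10-NC against LSB was not called under either of these settings (0.53 and 0.74) or with no filter (1.29, adjusted p = 0.0635). In MS5-NC against sox10-NC it was not called under these 3, with the authors' values or with only the 2 groups compared (-1.07 to -0.42). In NPC-NC against sox10-NC it was called with median scaling (-1.14) and array weights (-1.28).

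The main counts of called probes, over all genes, were 2109, 2932, 2630, 11, 1980 and 2424 for NPC-NC, MS5-NC and sox10-NC against LSB, NPC-NC against MS5-NC, and NPC-NC and MS5-NC against sox10-NC. They were 708, 1123, 978, 3, 746 and 968 without background correction. With an offset of 50 they were 1133, 1733, 1527, 10, 1145 and 1433. The count between NPC-NC and MS5-NC was 4 with no filter or only the 2 groups compared, 23 with array weights, 124 with array 1 of both groups left out together, and 2 to 43 with 1 array left out. A share of 63.2% of calls in NPC-NC against LSB were higher, 74.7% without background correction and 51.7% with median scaling, which moved the median of all probes by less than 0.1 in log2. With the replicate block the counts were 2113, 2932, 2637, 7, 1979 and 2422, and among receptor probes only EDNRB ILMN_1710297 in NPC-NC against sox10-NC changed its call, to called (adjusted p = 0.0423).

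Small differences that were not called changed sign. EDNRB ILMN_1710297 in NPC-NC against MS5-NC went from 0.00 to -0.014 without background correction, -0.065 in the authors' values, -0.10 with median scaling, -0.14 with array weights, -0.33 with array 1 of both groups left out, and -0.20 to 0.24 with 1 array left out. Median scaling gave 0.087 for ERBB3 ILMN_1737993 and 0.027 for GFRA1 ILMN_2334359 in MS5-NC against LSB, and -0.036 for the GFRA1 probe in NPC-NC against MS5-NC. Leaving out array 1 of both groups gave 0.024 for ERBB3 ILMN_1737993 and 0.012 for ILMN_2397602 in NPC-NC against MS5-NC. With 1 array left out, the ranges in NPC-NC against LSB were -0.44 to 0.022 for ERBB3 ILMN_1751346, -0.054 to 0.13 for ILMN_2397602 and -0.18 to 0.027 for GFRA1 ILMN_2334359. In MS5-NC against LSB they were -0.31 to 0.025 for ERBB3 ILMN_1737993 and -0.074 to 0.10 for GFRA1 ILMN_1725678. Between NPC-NC and MS5-NC they were -0.14 to 0.0038 for ERBB3 ILMN_2397602 and -0.33 to 0.13 for EDNRB ILMN_1751904, and in MS5-NC against sox10-NC -0.57 to 0.066 for EDNRB ILMN_1675100. The cause of these changes was not tested.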
